A study of Mus musculus with 6 samples.

Results

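The genes described here are 10 transcripts of neutrophils and of the acute-phase response to IL-17: S100a8, S100a9, Csf3r, Retnlg, Ngp, Camp, Lcn2, Saa3, Steap4 and Il1b. They were taken by symbol from a deposited table of brown adipose tissue RNA, in which 24016 rows carried a usable gene symbol, and all 10 were found, once each. The tissue, the heat-producing fat depot, came from C57BL6 mice in 2 groups: 3 libraries labelled AdIl17rc KO, read here, with a series title that speaks of adipocyte IL-17RC, as loss of that receptor subunit in adipocytes, and 3 libraries labelled WT. The labels give no treatment, age or sex, and do not name the driver or allele of the deletion. They also do not say that each library came from its own animal, so the p-values below measure only the spread between these samples. Whole tissue was sequenced, so cells other than adipocytes, which can keep their Il17rc, also gave RNA.

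IL-17 cytokines bind a receptor made of IL-17RA and IL-17RC, and the signal passes through the adaptor Act1 (gene Traf3ip2) to NF-kB and to C/EBP factors. Their best known targets in fat, epithelium and fibroblasts are chemokines that draw in neutrophils and secreted acute-phase proteins such as lipocalin-2 and serum amyloid A. Neutrophils themselves bring in a different set of transcripts, among them the S100 subunits of calprotectin and the receptor for their growth factor G-CSF. In whole tissue, fewer cells of a type and less RNA per cell cannot be told apart.

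Sequencing depth, estimated roughly from the smallest values, was 31.6 to 36.7 megafragments in knockout libraries and 33.5 to 39.1 megafragments in WT libraries. The targeted gene Il17rc had values of 1.32, 0.619 and 0.530 FPKM (fragments per kilobase of transcript, relative to library size) in knockout libraries 1, 2 and 3, below all WT libraries, which held 3.21, 2.28 and 2.02 FPKM. Ucp1, the uncoupling protein that defines brown fat, was at 2534 to 2979 FPKM in knockout and 1976 to 2577 FPKM in WT libraries. Most genes had lower values in knockout: the median log2 fold change of the 10864 tested genes, those with a mean of at least 0.5 FPKM, was -0.29. For that reason each change is also given after median-of-ratios scaling, written as "scaled". Scaled changes were still related to GC content, with a Spearman correlation of -0.44 over tested genes of known GC content. Skeletal muscle transcripts were uneven, although all 14 markers had a higher mean in knockout. The summed FPKM of these muscle markers was 412, 685 and 46.1 in knockout libraries 1, 2 and 3, against 41.5, 51.4 and 86.5 in WT libraries 1, 2 and 3. Knockout libraries 1 and 2, the ones with the most muscle transcripts, are also those in which most of the 10 genes were low. WT library 3, with the next highest sum, was the highest WT library for 3 of the 8 members tested and the lowest for 1. The part of muscle RNA in those results was not tested.

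None of the 10 genes passed the test of knockout against WT (limma on log2(FPKM + 0.5), Benjamini-Hochberg adjusted p under 0.05 over all tested genes), where 0.0184% of all tested genes did. The targeted gene Il17rc did not pass either (limma adjusted p = 0.151, and 0.226 scaled). At an unadjusted limma p under 0.05, 4 of the 8 genes above the expression minimum were lower in knockout, namely S100a8, S100a9, Csf3r and Lcn2, and 0 higher. Over all tested genes the shares were 24.8% lower and 1.01% higher. After scaling S100a9 and Csf3r remained below that limit, 2 of 8 beside 8.61% lower and 9.05% higher over all genes. S100a9 and Csf3r, both markers of neutrophils, came nearest: their values in all 3 knockout libraries lay below those in all 3 WT libraries, both as deposited and after scaling. Such a separation with knockout lower was seen for 31.7% of all tested genes as deposited and for 12.5% after scaling. Lcn2, Steap4, Saa3, Il1b, S100a8 and Retnlg overlapped between the groups. Ngp and Camp were almost undetected. Of the 8 genes above the expression minimum, 7 had a lower mean in knockout, where 87.6% of all tested genes did and 12.4% were higher. After scaling it was again 7 of 8, where 50.4% of all tested genes were lower and 49.6% higher. The median log2 difference over all 10 genes was -0.61 as deposited and -0.31 scaled, beside -0.29 and -0.00174 over all tested genes. That median includes Ngp and Camp, which the added 0.5 holds near 0. Over the 8 tested genes it was -0.70 and -0.45 scaled.

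**Figure D1:**
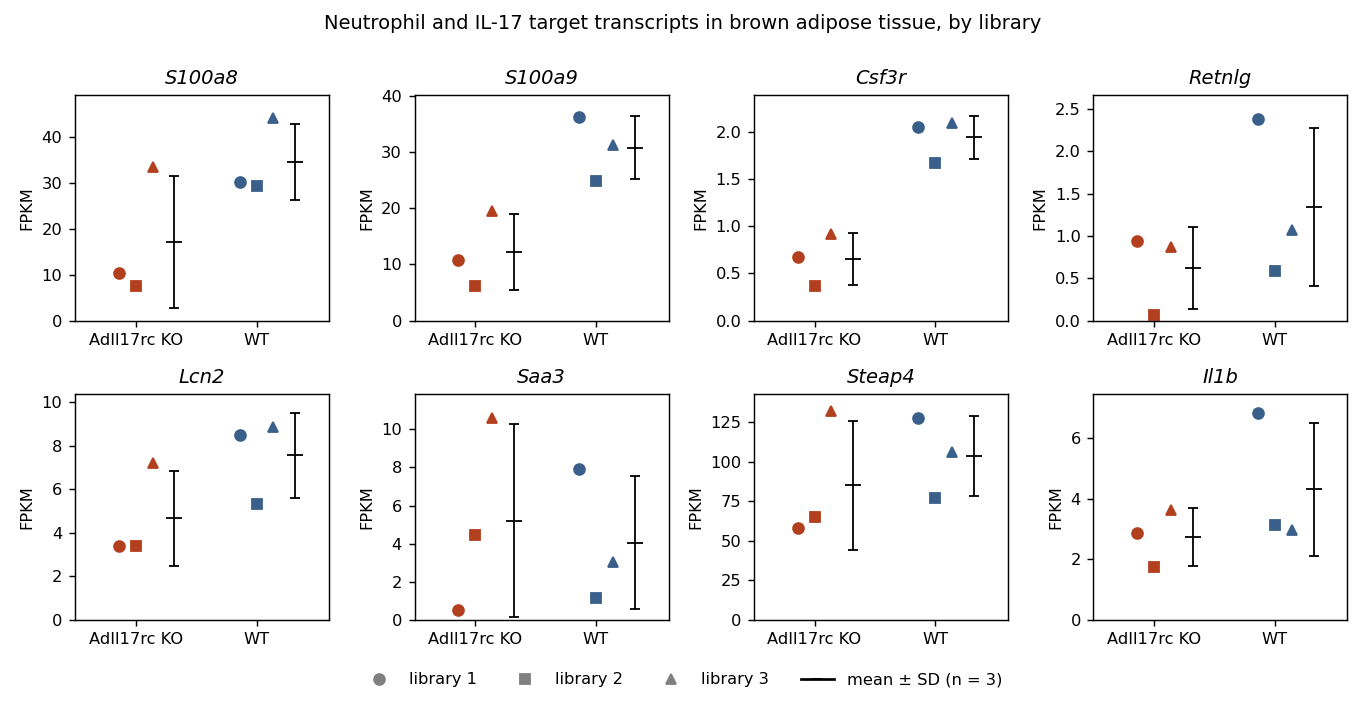
FPKM of the 8 genes above the expression minimum in each library, AdIl17rc KO beside WT, with the mean and SD of each group (n = 3) and symbols giving the library number. S100a9 and Csf3r do not overlap between the groups, and knockout library 3 is the highest knockout library for 7 of the 8 genes.

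S100a8 and S100a9 encode the subunits of calprotectin, a calcium- and zinc-binding heterodimer that fills the cytosol of neutrophils. S100a8 was at 10.3, 7.53 and 33.6 FPKM in knockout libraries 1, 2 and 3, against 30.2, 29.4 and 44.2 FPKM in WT libraries 1, 2 and 3. Knockout libraries 1 and 2 were below every WT library, while knockout library 3 lay among them. Knockout over WT, this is a log2 fold change of -1.26 ± 0.47 (SE, 3 libraries per group; limma adjusted p = 0.168), and -0.94 ± 0.54 scaled. S100a9 was at 10.9, 6.13 and 19.5 FPKM in knockout libraries 1, 2 and 3, against 36.2, 24.9 and 31.3 FPKM in WT libraries 1, 2 and 3. Here knockout library 3 was again the highest of its group but stayed below the lowest WT library. Its log2 fold change was -1.43 ± 0.36 (SE, 3 libraries per group; limma adjusted p = 0.151), and -1.11 ± 0.37 scaled. Group means of S100a9 were 12.2 ± 6.8 FPKM in knockout and 30.8 ± 5.7 FPKM in WT (SD, n = 3 each). Permuting the library labels exactly, two-sided, gave p = 0.1 for S100a9, the smallest that 3 against 3 allows, and p = 0.3 for S100a8. Without knockout library 3, the highest knockout library for both, 61 genes of the table passed in place of 2, and both genes were among them, S100a8 at a log2 fold change of -1.89 (limma adjusted p = 0.0138) and S100a9 at -1.83 (0.0262). After scaling and without that library 24 genes passed, and of the 8 only S100a9 (-1.56, limma adjusted p = 0.0472). Without knockout library 2, the lowest for both, S100a8 was at -0.84 (limma adjusted p = 0.432; -0.55 scaled) and S100a9 at -1.04 (0.422; -0.74 scaled).

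Csf3r, the receptor for the neutrophil growth factor G-CSF, was at 0.669, 0.368 and 0.918 FPKM in knockout libraries 1, 2 and 3, against 2.05, 1.67 and 2.09 FPKM in WT libraries 1, 2 and 3. As deposited, the groups were well apart. The gap between the highest knockout and the lowest WT library was wider than the range within either group. After scaling the groups still did not overlap, but the gap was narrower than the range within knockout. The means were 0.652 ± 0.275 FPKM in knockout and 1.94 ± 0.23 FPKM in WT (SD, n = 3 each). On the log2(FPKM + 0.5) scale, which understates the change of so low a gene, the fold change was -1.11 ± 0.21 (SE, 3 libraries per group; limma adjusted p = 0.151), and -0.88 ± 0.21 scaled. With a pseudocount of 0.1 it was -1.50 (limma adjusted p = 0.142). Csf3r passed without knockout library 3, its highest knockout library (limma log2 fold change -1.27, adjusted p = 0.0370; 61 genes called over the table), but not after scaling without that library (0.0744). It did not pass without any other single library: the limma adjusted p was 0.0885 without knockout library 1, 0.422 without knockout library 2, and 0.344, 0.182 and 0.208 without WT library 1, 2 or 3. By the rough depth estimate, the lowest Csf3r value corresponds to about 38.6 fragments and the highest to about 241. Knockout library 3 and WT library 2, on either side of the gap as deposited, correspond to about 106 and 207 fragments. Counting error was not computed.

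Retnlg, a resistin-like secreted protein of mouse neutrophils and their bone marrow precursors, was at 0.940, 0.0681 and 0.868 FPKM in knockout libraries 1, 2 and 3, against 2.38, 0.585 and 1.07 FPKM in WT libraries 1, 2 and 3. The groups overlapped, and the knockout library 2 value rests on only about 1.34 fragments. Its log2 fold change was -0.71 ± 0.43 (SE, 3 libraries per group; limma adjusted p = 0.287), and -0.51 scaled. Ngp and Camp, granule proteins related to or named as cathelicidin and made during neutrophil maturation in the marrow, were listed at 0 in 5 of the 6 libraries. In WT library 2 Ngp was at 0.0492 and Camp at 0.0598 FPKM, which corresponds to about 2.35 and 1.77 fragments. With so few fragments a difference between the groups was not detectable for either gene at this depth.

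The sequence upstream is shown for S100a9 and Csf3r, whose values did not overlap between the groups, and for S100a8, the partner of S100a9. The runs are the 250 bases before the RefSeq start, 5′ to 3′ on the gene strand, on build GRCm38.p6: chr3:90668821-90669070 on the + strand, chr3:90695722-90695971 on the - strand and chr4:126024409-126024658 on the + strand. Capitals mark matches on either strand to TTNNGNAA, a C/EBP pattern, or to GAGGAA, the core of the pattern bound by the myeloid factor PU.1.
S100a8: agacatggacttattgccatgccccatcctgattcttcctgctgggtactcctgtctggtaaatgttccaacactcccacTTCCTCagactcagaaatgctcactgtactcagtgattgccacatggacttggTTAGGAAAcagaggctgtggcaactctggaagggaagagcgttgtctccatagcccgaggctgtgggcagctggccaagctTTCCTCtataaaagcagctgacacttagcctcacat
S100a9: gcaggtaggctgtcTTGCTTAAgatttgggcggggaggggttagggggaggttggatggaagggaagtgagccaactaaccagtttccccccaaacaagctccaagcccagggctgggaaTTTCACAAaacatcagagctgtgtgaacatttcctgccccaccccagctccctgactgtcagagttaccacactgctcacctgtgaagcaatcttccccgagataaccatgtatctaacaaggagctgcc
Csf3r: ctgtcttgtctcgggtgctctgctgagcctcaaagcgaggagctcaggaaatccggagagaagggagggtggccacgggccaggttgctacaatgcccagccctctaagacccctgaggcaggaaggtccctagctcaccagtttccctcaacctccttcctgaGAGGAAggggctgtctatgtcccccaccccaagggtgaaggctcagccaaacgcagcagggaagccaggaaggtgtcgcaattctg
S100a8 had 1 match to the C/EBP pattern and 2 to that of PU.1, S100a9 had 2 and 0, and Csf3r had 0 and 1. Of 32851 such windows over all genes, 36.8% held the C/EBP pattern and 23.3% that of PU.1. Among the 10 genes 8 held the C/EBP pattern and 3 that of PU.1. A match is a description of the letters and does not show binding.

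Of 35 other neutrophil genes, 34 were in the table and 15 passed the expression minimum. None of the 15 passed the limma test and 5 were lower at an unadjusted p under 0.05 (1 after scaling), beside 24.8% (8.61%) of all tested genes. Knockout values lay below WT without overlap for 2 of the 15, beside 31.7% of all tested genes. In knockout 14 were lower as deposited and 9 after scaling, with a median log2 fold change of -0.44 (-0.24 scaled). Il1r2, a decoy receptor for interleukin-1 that neutrophils carry, was at 0.944, 0.746 and 2.25 FPKM in knockout libraries 1, 2 and 3, against 2.98, 1.89 and 2.94 FPKM in WT libraries 1, 2 and 3 (limma adjusted p = 0.165). Cxcr2, the receptor for the chemokines that guide neutrophils into tissue, showed the same split, with 0.238, 0.243 and 1.09 FPKM in knockout against 1.42, 0.787 and 1.22 FPKM in WT libraries 1, 2 and 3. For both genes knockout library 3 lay within the WT range and the other knockout libraries below it. Pglyrp1, a bactericidal granule protein, was listed at 0 in knockout library 2, had 0.428 FPKM in knockout library 1 and 0.525 FPKM in knockout library 3, against 1.09, 1.09 and 0.796 FPKM in WT libraries 1, 2 and 3. Hdc, the enzyme that makes histamine, was at 1.76 ± 0.34 FPKM in knockout and 3.06 ± 0.68 FPKM in WT (SD, n = 3 each; limma adjusted p = 0.157). Granule genes made in marrow precursors, picked out after their values were seen, were low in both groups but not alike. Prtn3 was at 0.304, 0.215 and 0.326 FPKM in knockout and 0.322, 0.369 and 0.593 FPKM in WT libraries 1, 2 and 3. Mmp8 was at 0.181, 0.0852 and 0.343 FPKM in knockout and 0.413, 0.219 and 0.481 FPKM in WT libraries 1, 2 and 3. Mpo, Ltf and Elane never exceeded 0.115 FPKM, and Ctsg and Fcnb were among 5 genes listed at 0 in all 6 libraries.

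The separation of S100a9 and Csf3r was set beside markers of other cells. All 12 pan-leukocyte markers were tested, 8 lower and 4 higher in knockout as deposited and 2 lower and 10 higher after scaling. Their summed FPKM was 60.2, 47.1 and 65.5 in knockout libraries 1, 2 and 3 and 84.1, 62.3 and 39.0 in WT libraries 1, 2 and 3, so the groups overlapped. Macrophage markers were tested for 18 of 19 genes, with a median log2 fold change of 0.04 (0.34 scaled). In ratios taken within a library, which do not depend on scaling and were added after the values were seen, S100a9 was set against Ptprc, the CD45 gene of all leukocytes. The ratio was 7.25, 4.44 and 12.8 in knockout libraries 1, 2 and 3, against 21.2, 15.6 and 30.9 in WT libraries 1, 2 and 3. For Csf3r over Ptprc the values were 0.446, 0.267 and 0.604 in knockout and 1.21, 1.05 and 2.07 in WT libraries 1, 2 and 3. Neither ratio overlapped between the groups, with log2 differences of -1.55 for S100a9 and -1.73 for Csf3r (exact two-sided permutation p = 0.1 for each, the smallest possible). Only Ptprc among the 12 pan-leukocyte markers was used, and it was not lower in knockout (log2 fold change 0.04, 0.29 scaled). Among the 8 lower as deposited, Spi1 was at -0.44 (-0.18 scaled). Ratios to the other markers, and the share of all genes that separate in this way, were not worked out. Of 9 red cell markers in the table, a sign of blood left in the tissue, 6 were tested and 5 were lower in knockout on either scale. They summed to 1721, 979 and 1958 FPKM in knockout libraries 1, 2 and 3, against 2734, 1564 and 2168 FPKM in WT libraries 1, 2 and 3. Knockout library 2, the lowest for 6 of the 8 genes, was also the lowest for red cell markers, and the part of blood in these results was not tested. Endothelial and fibroblast markers were mostly lower in knockout as well. Over all tested genes 87.6% were lower as deposited and 50.4% scaled. Separation with knockout lower was seen for 31.7% as deposited and 12.5% scaled. All 9 endothelial markers were lower on both scales, with no overlap for Vwf (scaled log2 fold change -0.72), Cdh5 (-0.59) and Pecam1 (-0.32). Of 8 tested fibroblast markers 7 were lower as deposited and 5 after scaling, and the collagen genes Col1a1 (-1.14 scaled), Col3a1 (-1.06) and Col1a2 (-0.92) did not overlap between the groups. The part of these cells in the results for S100a9 and Csf3r was not tested.

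**Figure D2:**
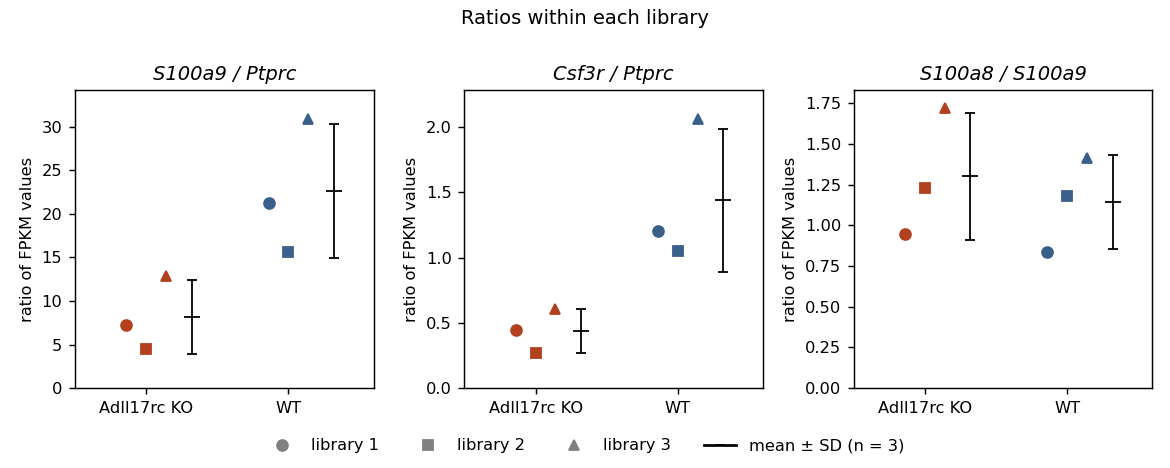
Ratios of FPKM values within each library for S100a9 over Ptprc, Csf3r over Ptprc and S100a8 over S100a9, AdIl17rc KO beside WT, with mean and SD (n = 3). Both ratios to Ptprc are lower in every knockout library than in any WT library, while S100a8 over S100a9 overlaps.

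The balance of the calprotectin transcripts varied between libraries within each group. The S100a8 to S100a9 ratio of FPKM was 0.950, 1.23 and 1.72 in knockout libraries 1, 2 and 3 and 0.836, 1.18 and 1.41 in WT libraries 1, 2 and 3. These ranges overlapped, and the log2 difference was 0.18 (exact two-sided permutation p = 0.7). Without knockout library 3 or without WT library 1 its sign turned, to -0.0493 and -0.0340.

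Lcn2, Saa3 and Steap4 are the members most often named as IL-17 targets in non-blood cells, and none of them separated the groups. Lcn2 encodes lipocalin-2, which binds bacterial iron carriers. It was at 3.41, 3.38 and 7.20 FPKM in knockout libraries 1, 2 and 3, against 8.50, 5.30 and 8.87 FPKM in WT libraries 1, 2 and 3. Knockout libraries 1 and 2 lay below all WT libraries and knockout library 3 among them. The difference on the log2 scale was -0.69 ± 0.30 (SE, 3 libraries per group; limma adjusted p = 0.193), and after scaling it moved to -0.38 ± 0.33. Steap4, a metalloreductase of adipocytes that takes up iron and copper and responds to inflammatory cytokines, was the most abundant of the 10 per unit length. It was at 58.4, 64.9 and 132 FPKM in knockout libraries 1, 2 and 3, against 128, 77.0 and 106 FPKM in WT libraries 1, 2 and 3. Knockout library 3 held the highest value of all 6 libraries. Its log2 fold change of -0.35 ± 0.32 (SE, 3 libraries per group; limma adjusted p = 0.449) was -0.02 ± 0.34 after scaling, and the scaled sign turned when knockout library 1, knockout library 2, WT library 1 or WT library 3 was left out.

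Saa3, the serum amyloid A form made in mouse fat and by macrophages, varied more within the groups than between them. Its values were 0.537, 4.47 and 10.6 FPKM in knockout libraries 1, 2 and 3 and 7.92, 1.16 and 3.03 FPKM in WT libraries 1, 2 and 3. Both the lowest and the highest of the 6 libraries were knockout. The log2 fold change of 0.07 ± 0.84 (SE, 3 libraries per group; limma adjusted p = 0.956) was 0.38 ± 0.91 scaled. Saa3 has the close relatives Saa1 and Saa2, and the sources used here do not say how reads shared between such copies were counted.

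The upstream sequences of Saa3 and Steap4 are shown as the pair with the most matches to the C/EBP pattern among these targets, from chr7:46715677-46715926 on the - strand and chr5:7960222-7960471 on the + strand of GRCm38.p6. Capitals mark TTNNGNAA on either strand and, in Steap4 only, matches to the NF-kB consensus, which overlap a C/EBP match at 1 place.
Saa3: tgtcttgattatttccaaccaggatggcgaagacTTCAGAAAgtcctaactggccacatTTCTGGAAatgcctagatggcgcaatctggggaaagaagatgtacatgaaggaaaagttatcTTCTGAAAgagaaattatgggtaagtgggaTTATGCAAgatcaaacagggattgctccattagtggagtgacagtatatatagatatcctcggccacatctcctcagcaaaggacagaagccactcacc
Steap4: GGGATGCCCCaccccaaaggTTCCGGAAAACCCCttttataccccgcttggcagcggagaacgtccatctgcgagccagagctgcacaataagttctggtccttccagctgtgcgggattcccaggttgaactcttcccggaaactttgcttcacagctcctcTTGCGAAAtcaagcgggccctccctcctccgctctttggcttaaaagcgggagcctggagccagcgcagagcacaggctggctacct
Saa3 had 4 matches to the C/EBP pattern. Steap4 had 2 sites, each read on both strands, and 2 matches to the NF-kB consensus, which 3.90% of all such windows held. No other of the 10 genes matched that consensus in this window.

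Il1b encodes the inflammatory cytokine interleukin-1 beta, which neutrophils and macrophages release and which shares many targets with IL-17. It was at 2.87, 1.73 and 3.62 FPKM in knockout libraries 1, 2 and 3, against 6.85, 3.12 and 2.99 FPKM in WT libraries 1, 2 and 3. The WT mean rests largely on WT library 1, and knockout library 3 lay above the other WT libraries. On the log2 scale the difference was -0.53 ± 0.33 (SE, 3 libraries per group; limma adjusted p = 0.293), and it moved to -0.24 scaled and to 0.00234 scaled without WT library 1. Of 13 tested genes of the interleukin-1 pathway none passed the limma test. At an unadjusted p under 0.05, 4 were lower, beside 24.8% of all tested genes. After scaling that count was 0 lower and 1 higher, beside 8.61% and 9.05%. By their means 12 were lower in knockout as deposited and 8 after scaling, beside 87.6% and 50.4% of all tested genes. Il1r1, the signalling receptor, was at 4.52, 5.41 and 7.06 FPKM in knockout libraries 1, 2 and 3, against 9.94, 7.99 and 9.55 FPKM in WT libraries 1, 2 and 3, with no overlap (limma adjusted p = 0.154). Such a separation as deposited was seen for 31.7% of all tested genes. Scaled, the Il1r1 groups overlapped.

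**Figure D3:**
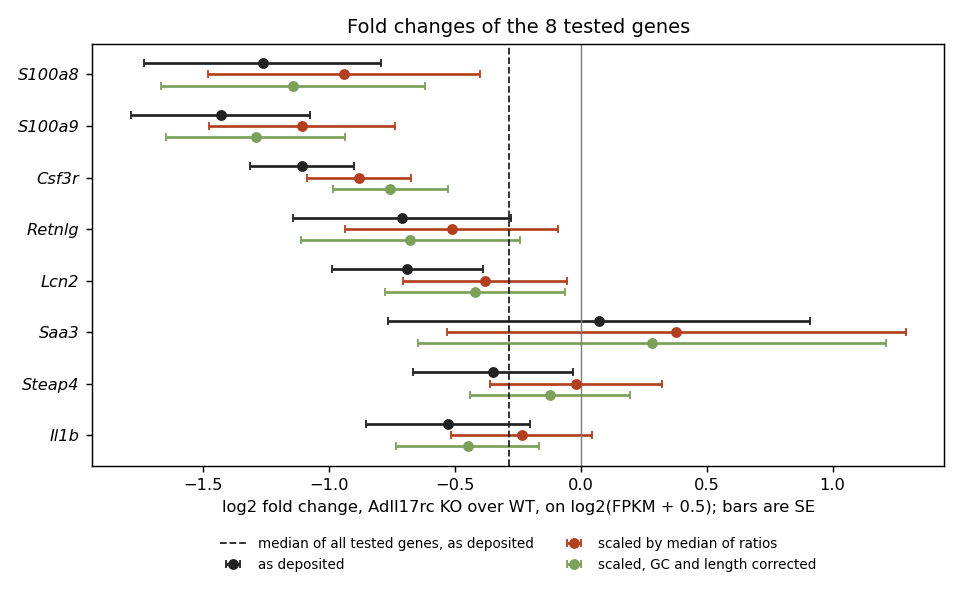
Log2 fold changes of the 8 tested genes, AdIl17rc KO over WT, with SE (n = 3 per group), as deposited, after median-of-ratios scaling, and after scaling with a GC and length correction added later. The dashed line is the median of all tested genes as deposited, -0.29; S100a8, S100a9 and Csf3r lie farthest below it.

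Other genes known to respond to IL-17 sat at the middle of all genes. Of 28 listed, 20 were tested, none passed the limma test and 4 were lower at an unadjusted p under 0.05 (2 after scaling). Over all tested genes 24.8% were lower at that limit, and 8.61% after scaling. As deposited 17 were lower and 3 higher in knockout, where 87.6% of all tested genes were lower. After scaling 10 were lower and 10 higher, where 50.4% of all tested genes were lower, with a scaled median log2 fold change of -0.00757. Chemokines of the list that draw in neutrophils were picked out after their values were seen. Their scaled log2 fold changes were 0.02 for Cxcl1, -0.03 for Cxcl2 and 0.14 for Cxcl5. Tnfaip3, which encodes the NF-kB inhibitor A20, was at 3.22 ± 0.14 FPKM in knockout and 5.20 ± 1.38 FPKM in WT (SD, n = 3 each; limma adjusted p = 0.162; scaled log2 fold change -0.29). Zc3h12a, whose product Regnase-1 degrades inflammatory messenger RNAs, was at 2.73 ± 0.69 FPKM in knockout and 4.66 ± 1.41 FPKM in WT (SD, n = 3 each; limma adjusted p = 0.165; scaled -0.37). Mmp3, a matrix protease, was at 2.02 ± 0.17 FPKM in knockout and 2.82 ± 0.30 FPKM in WT (SD, n = 3 each), a scaled log2 fold change of -0.12. Scaled, the groups overlapped for Tnfaip3, Zc3h12a and Mmp3. Traf3ip2, the adaptor between the receptor and these targets, was at 0.403, 0.555 and 0.720 FPKM in knockout and 2.16, 0.952 and 1.12 FPKM in WT libraries 1, 2 and 3, with no overlap (limma adjusted p = 0.159). Separation with knockout lower was seen for 31.7% of all tested genes as deposited. Il17ra, the partner subunit, was at 2.48, 2.66 and 4.17 FPKM in knockout and 6.26, 4.10 and 3.53 FPKM in WT libraries 1, 2 and 3, with overlap.

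Among 24 other acute-phase genes, 17 were tested, none passed the limma test and 5 were lower at an unadjusted p under 0.05 (2 after scaling). The shares of all tested genes lower at that limit were 24.8% and 8.61%. By their means 14 were lower in knockout as deposited and 12 after scaling (scaled median log2 fold change -0.19), beside 87.6% and 50.4% of all tested genes. The list also holds signalling genes. Among the 5 were Il1r1, Il6ra and Stat3, which encode receptors and a transcription factor, not acute-phase proteins. The 2 after scaling were Il6ra and Stat3. Il1r1 is counted in the interleukin-1 pathway as well. Stat3, the transcription factor of the IL-6 acute-phase signal, was at 40.8, 42.9 and 45.3 FPKM in knockout and 87.5, 63.6 and 57.1 FPKM in WT libraries 1, 2 and 3 (limma adjusted p = 0.154; scaled log2 fold change -0.33). Il6ra, the IL-6 receptor, was at 7.85 ± 1.31 FPKM in knockout and 14.9 ± 4.2 FPKM in WT (SD, n = 3 each; limma adjusted p = 0.151; scaled -0.54). Orm1, a plasma acute-phase glycoprotein, was at 14.9, 16.1 and 15.9 FPKM in knockout and 31.1, 16.5 and 34.9 FPKM in WT libraries 1, 2 and 3. Hp, or haptoglobin, which binds free haemoglobin and was listed with the neutrophil genes, was, as Steap4 was, highest in knockout library 3, with 543, 508 and 1336 FPKM in knockout libraries 1, 2 and 3 and 1112, 689 and 881 FPKM in WT libraries 1, 2 and 3.

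**Figure D4:**
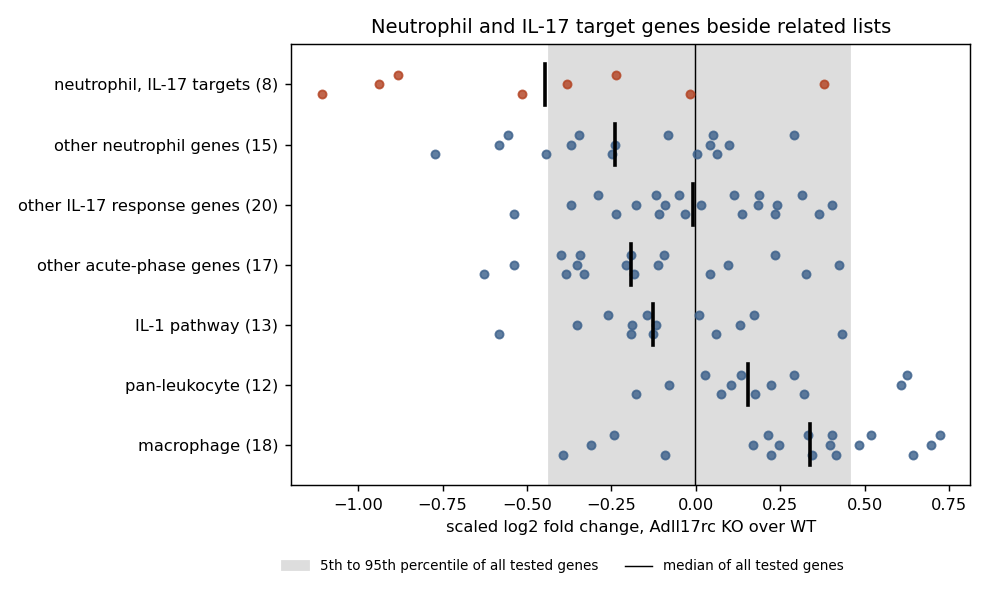
Scaled log2 fold changes, AdIl17rc KO over WT, of each tested gene in the 10-gene set and 6 related lists, with the number tested in brackets and the list median as a black bar. Grey marks the 5th to 95th percentile of all tested genes, from -0.43 to 0.46; S100a9, S100a8, Csf3r and Retnlg lie left of it.

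Of 27 relatives of the 10 genes, 17 were tested, none passed the limma test and 4 were lower at an unadjusted p under 0.05, with a median log2 fold change of -0.34 (-0.04 scaled). After scaling 1 was lower and 4 were higher at that limit, beside 8.61% and 9.05% of all tested genes. As deposited, 24.8% of all tested genes were lower at it. S100a6, a calcium-binding protein of many cell types, was at 22.4 ± 3.7 FPKM in knockout and 30.2 ± 4.9 FPKM in WT (SD, n = 3 each; scaled log2 fold change -0.10). Csf2ra, a receptor subunit for the growth factor GM-CSF, was at 1.77, 1.23 and 1.38 FPKM in knockout and 3.23, 2.03 and 2.16 FPKM in WT libraries 1, 2 and 3 (limma adjusted p = 0.164; scaled -0.33). Retn, the resistin gene of mouse fat cells and a relative of Retnlg, named after its values were seen, was at 36.8, 26.1 and 38.5 FPKM in knockout and 41.9, 27.1 and 58.1 FPKM in WT libraries 1, 2 and 3.

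Across the 6 libraries the genes most like S100a8, by Pearson correlation of scaled log2(FPKM + 0.5) among 9047 genes with a mean of at least 1 FPKM, were Il1r2 (r = 0.971), Ak4 (0.969), Rprd1b (0.967) and Zfp36l2 (0.956). Those most like Lcn2 were Mettl3 (0.997), Fjx1 (0.992), Nat10 (0.985), Arhgef18 (0.983) and Abcg1 (0.982). All points share the same 6 libraries and scaling, and the values are descriptions. Within the set, the same measure was 0.922 between S100a8 and S100a9, 0.964 between S100a9 and Csf3r, 0.890 between Lcn2 and Steap4 and 0.854 between Saa3 and Steap4. Between Saa3 and Csf3r it was 0.0110.

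The libraries of one group were uneven in the same way for most of the 10 genes. Knockout library 3 was the highest knockout library for 7 of the 8 tested genes, all but Retnlg, and knockout library 2 the lowest for 6 of 8. In WT, library 1 was the highest for 5 genes and library 2 the lowest for 7. After scaling, the median of the 10 genes was at -0.74, -0.67 and 0.12 log2 units from the WT mean in knockout libraries 1, 2 and 3, against -0.01, -0.17 and 0.09 in WT libraries 1, 2 and 3. These medians include Ngp and Camp.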

How the data were processed

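PolyA RNA of brown adipose tissue was sequenced in 3 AdIl17rc KO and 3 WT libraries, grouped by their labels. The authors deposited 1 column of values per library, taken as FPKM because Cufflinks writes that unit and low values step with transcript length. STAR 2.5.1b, Cufflinks 2.2.1, DESeq2 1.10.1 and build mm9 are named in the submitters' processing notes, without roles. Annotation, strand setting and treatment of shared reads: not given in the sources used here. Although the table's name says counts, its values are not whole, so no count model was used. Of 24043 rows, 27 whose symbols had become dates were left out.

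After adding 0.5 and taking log2, each of 10864 genes whose mean reached 0.5 FPKM was tested with limma 3.58.1 in R 4.3.3 (genotype only, empirical Bayes with a trend, two-sided), Benjamini-Hochberg adjustment over all of them and a threshold of 0.05. Scaled results repeat the fit on values divided by median-of-ratios factors. Library totals cannot be read from FPKM, so depth was estimated from the lowest values of genes with 1 transcript of at least 1500 bases, and fragments per gene from that depth and the length of 1 GENCODE transcript, so both are rough. The test was checked on simulated data. GC content and lengths came from GRCm38, with no coordinates joined to the table. Upstream sequences are RefSeq's on GRCm38.p6, and all 10 genes matched by symbol. An older symbol stood for 2 listed genes, Adgre1 and Wfdc21.

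The 10 genes and all lists were chosen with earlier results of these data known. Genes to be named were Il17rc, Il17ra and, per list, the 4 with the smallest limma p, plus the 3 most abundant markers for marker lists. Only part of them is shown, and genes outside the rule are said to be picked afterwards. For S100a8 and Lcn2 the 5 genes of highest correlation were taken, of which 1 for S100a8 is not reported here. Alternatives were other pseudocounts, filters, scalings and variance models, a replicate block and leaving out each library; GC and length correction and a common sum without Mir6236 were added after seeing the data.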

Additional observations from a re-analysis of the deposited data

How the results depend on the processing

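Over all genes 2 calls were made. The count was 1 with no filter on low values, 263 with rescaling to a common sum, 14 with robust empirical Bayes, and 1 with a replicate block, with or without scaling. Leaving out single libraries gave 1 to 61 calls. With scaling as well it gave 3, 1 and 24 without knockout library 1, 2 or 3 and 4, 4 and 7 without WT library 1, 2 or 3. None of the 10 genes was called under any alternative but these: a common sum, where 2 were, S100a9 (limma adjusted p = 0.0156) and Csf3r (0.0117), and leaving out libraries, with a range of 0 to 3, the 3 being without knockout library 3 and 1 there with scaling. With Mir6236 left out of the common sum, 2 genes were called in all and none of the 10. With GC and length correction of the scaled values, S100a9 was at -1.29 (limma adjusted p = 0.307) and Csf3r at -0.76 (0.309). The labels do not say whether the replicate numbers pair the libraries. With group means removed, same-numbered libraries correlated at 0.104, -0.121 and -0.0809, which is too little to exclude pairing. The replicate block called none of the 10 (limma adjusted p = 0.0519 for S100a9 and Csf3r). With it the SE was smaller for every tested gene of the 10 but Saa3. For S100a8 the SE went from 0.47 to 0.30, and for Saa3 from 0.84 to 0.97. The median log2 difference over the 10 genes, Ngp and Camp included, ran from -0.816 to -0.256 with libraries left out. With scaling too it was -0.179, -0.0572 and -0.156 without knockout library 1, knockout library 2 or WT library 1. That of the S100a8 to S100a9 ratio ran from -0.0493 to 0.380. Saa3 turned to -0.00706 with a pseudocount of 0.1, ran from -0.691 to 1.02 with libraries left out, and with scaling was -0.431 and -0.126 without knockout library 3 or WT library 2. Scaled, Steap4 turned to 0.286, 0.0903, 0.0276 and 0.0628 without knockout library 1, knockout library 2, WT library 1 or WT library 3, and Il1b to 0.00234 without WT library 1. The cause of these shifts was not tested. Depth limits Ngp, Camp and Retnlg.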
